A study of Rattus norvegicus with 20 samples.

Results

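The liver of rats kept on a diet cut by 5% for 1 month was compared with the liver of rats kept on the same diet for 1 week. The comparison used 4 of the 20 arrays of the series, 2 for each duration, and all 15866 probe sets that were not controls. The 2 arrays of a duration measured 1 pool of RNA from 5 rats, so each side of the comparison was a single pool. By its title, the series asks how mild restriction of food alters gene expression in the liver.

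All rats were male Wistar, an outbred laboratory strain, and went without food for 16 h before their livers were collected. The remaining 16 arrays came from 8 pools of rats with no restriction (control) or with 10, 20 or 30% restriction for 1 week or 1 month. The design text gives 6 weeks as the age of the rats when the diets were given. The arrays carry an age of 6 weeks for the 1 week pools and 9 weeks for the 1 month pools, and do not state which day it refers to (first on the diet or collection); neither reading matches a start at 6 weeks in all rats. Duration on the diet and age therefore cannot be told apart. The labels used here give no time of day for the collection.

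The liver takes up the nutrients of each meal, makes fatty acids and cholesterol when food is plentiful, and burns fat and amino acids when it is not. Its clock genes and several enzymes, among them the first enzyme of bile acid synthesis, also follow a daily rhythm that feeding times can set. In fasting, insulin falls and glucocorticoid hormones act on enzymes that break down amino acids for glucose production.

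The arrays were Affymetrix rat expression GeneChips, on which a gene is read by a set of short probes. Signals were compared on the log2 scale after quantile normalization, which gives every array the same distribution, and a difference of 1 is a doubling of the signal. Of the 15866 probe sets, the upper 60% by mean signal, 9520 probe sets for 7056 named genes, were examined. Where a gene had several probe sets, the brightest stood for it. Differences are given as 1 month minus 1 week. Where an array of the lower pool lay under the lowest mean signal examined (3.54 on the log2 scale), the fold is given as "at least", with values under that level raised to it.

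The 2 arrays of the 1 week pool correlated at 0.950 and those of the 1 month pool at 0.967, while arrays of different durations at 5% correlated at 0.942 to 0.947. The 2% trimmed mean of the deposited signals was 41.7 and 53.0 units for the 1 week arrays and 58.6 and 99.6 for the 1 month arrays, within a range of 38.8 to 99.6 over the series. As deposited, the median gene was therefore 0.66 higher at 1 month on the log2 scale, and every difference here is relative to the typical gene. The ratio of 3' to 5' Gapdh signal, a sign of RNA length, was 1.57 and 1.39 at 1 week and 1.60 and 1.62 at 1 month.

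At 1 month the liver on the 5% diet had higher signals of Cyp7a1, Nat8, Por, Tat, Sds and Hlf and lower signals of Tubb2a, Cyp2c12, Kynu, Gckr and Igfbp1 than at 1 week. By a rule of size, a difference of at least 1 and no overlap between the arrays of the 2 pools, 160 genes were higher at 1 month (2.27% of 7056) and 97 were lower (1.37%), 3.64% in all. Counted by probe set, 368 passed (3.87%), of which 223 were higher (2.34% of 9520) and 145 lower (1.52%). The same rule between durations gave 335 probe sets in the control diet (3.52%), 225 at 10% (2.36%), 224 at 20% (2.35%) and 298 at 30% (3.13%). The rule compares 2 pools and is no test between groups of rats. For every gene list below, the shares over all genes were 2.27% past the rule upward and 1.37% downward. At any size, 49.7% of all genes were above 0 and 50.3% below 0. Leaving out 1 of the 4 arrays gave 290 to 409 probe sets higher, the most without array 2 of the 1 week pool, and 222 to 270 lower.

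**Figure D1:**
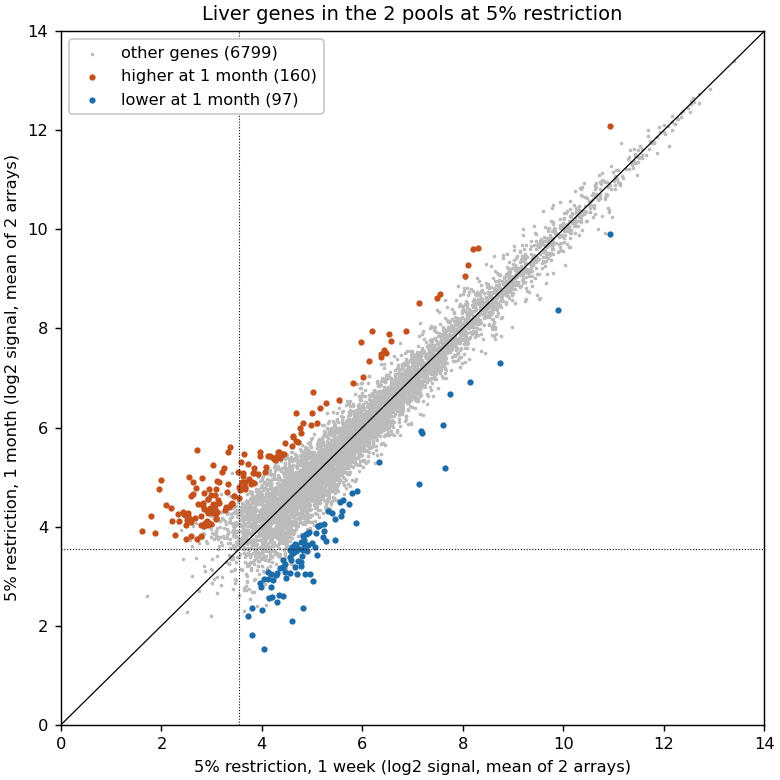
Each point is 1 of 7056 genes, with the log2 signal of the 1 week pool at 5% on the horizontal axis and of the 1 month pool on the vertical axis, each the mean of 2 arrays. The 160 higher and 97 lower genes past the size rule are coloured, the solid line marks equal signal and the dotted lines mark 3.54; 86 of the higher genes lie left of the vertical dotted line and 49 of the lower genes lie under the horizontal one.

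A limma model of all 10 pools measured the spread from how far the month minus week differences of the other 4 diets lay from each other, and so assumes that duration acts alike in those diets. The ± values below are its standard errors (n = 10 pools, with a single pool at 5% for each duration). They hold no measure of the spread between pools at 5%. One probe set passed at 5%, that of Igfbp1 (0.0105% of 9520), and 964 had an unadjusted p under 0.05 (10.1%). Without the 10% pools 18 probe sets passed upward and 8 downward. For the difference between the 5% diet and the mean of the other diets, limma called 0 probe sets (0.0%, lowest adjusted p = 0.295), and 870 had an unadjusted p under 0.05 (9.14%). No gene below can therefore be called particular to the 5% diet by this test.

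Igfbp1, a secreted liver protein that binds insulin-like growth factors and is lowered by insulin, gave log2 signals of 7.75 and 7.47 at 1 week and 6.20 and 5.92 at 1 month. All 4 arrays kept the durations apart, and the 1 month pool at 5% was the lowest of the 10 pools. Igfbp1 fell by 1.55 ± 0.17, a 2.93-fold lower signal (limma adjusted p = 0.0433). It was also lower at 1 month in the other diets, by differences of -0.76 in controls, -0.51 at 10%, -0.56 at 20% and -0.76 at 30%. The difference between the 5% diet and the mean of these was -0.90 ± 0.19 and did not pass (limma adjusted p = 0.295). The call at 5% held in 7 of 13 alternative fits, whose adjusted p ran from 1.32e-05 to 0.265. The lowest of these came from a fit of single arrays that counts the 2 arrays of a pool almost as separate samples, and the highest from the fit without a variance trend. The call was lost in that fit without a trend, with median centring, without array 1 of each pool, and without the control, 20% or 30% pools. Among the fits that kept it was that of the signals as deposited. There the median gene was 0.66 higher at 1 month and Igfbp1 differed by -0.80. With median centring Igfbp1 differed by -1.23.

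The 300 bases around the start of Igfbp1 are shown because it was the gene that passed. The sequence is from RefSeq (GRCr8, chr14:86261027-86261326, plus strand), with matches to the CCAAT box (CCAAT on either strand) in capitals.
Igfbp1: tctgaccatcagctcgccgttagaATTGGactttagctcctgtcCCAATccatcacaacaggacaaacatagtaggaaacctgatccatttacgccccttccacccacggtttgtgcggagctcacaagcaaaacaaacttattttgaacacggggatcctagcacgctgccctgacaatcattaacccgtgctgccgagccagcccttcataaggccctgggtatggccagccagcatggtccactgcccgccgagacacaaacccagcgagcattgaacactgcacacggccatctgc
It held 2 CCAAT matches, as at least 1 did in 37.7% of 27457 rat promoters of the same length. It held no match to the palindromic glucocorticoid response element, which 0.051% of these promoters held, and these letters say nothing of the receptor.

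Over the 17 measured genes of the growth hormone and insulin-like growth factor axis, Igfbp1 included, the median difference was -0.14, with 1 past the rule upward and 1 (Igfbp1) downward. Cish, a feedback inhibitor of cytokine receptor signalling, was the higher one, at 4.31 and 4.20 at 1 week and 5.16 and 5.54 at 1 month (1.10 ± 0.76). Igf1 itself differed by -0.20 ± 0.11 on its brightest probe set and by -0.53 ± 0.13 on a second.

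Genes that respond to stronger restriction differed between the durations at 5%. From the 4 pools at 0 and 30% restriction, 64 genes were taken that were at least 1 higher at 30% than in controls at both durations, and 68 that were at least 1 lower; the 5% pools had no part in this choice. Of the 64, 57 were higher at 1 month than at 1 week on the 5% diet, against 49.7% of all genes, and 16 passed the size rule upward (25.0% of the 64, against 2.27% of all genes) and 0 downward. Of the 68, 59 were lower at 1 month, against 50.3% of all genes, 11 passed downward (16.2%, against 1.37%) and 1, the zinc finger gene Zfp414, passed upward. The median difference was 0.65 for the first set and -0.43 for the second. These sets were drawn up after the data had been seen, share many co-varying genes and carry no test.

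The level of these genes at 5% lay between control and the stronger diets at 1 week. The median log2 signal of the 64 genes at 1 week was 5.08 in controls, 6.05 at 5%, 6.39 at 10%, 6.85 at 20% and 6.97 at 30%. At 1 month it was 5.07 in controls, 6.53 at 5%, 6.58 at 10%, 6.83 at 20% and 6.67 at 30%, so that the 5% pool lay beside the 10% pool. The 68 genes mirrored this, with 7.27, 6.31, 5.80, 5.34 and 5.08 from control to 30% at 1 week and 7.21, 5.69, 5.68, 5.36 and 5.29 at 1 month. The median month minus week difference of the 64 genes was 0.29 at 10% and -0.14 at 20%, and of the 68 genes -0.40 and 0.02. With the signals as deposited the median of the 68 genes was 0.16, which is -0.50 relative to the median of all genes.

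**Figure D2:**
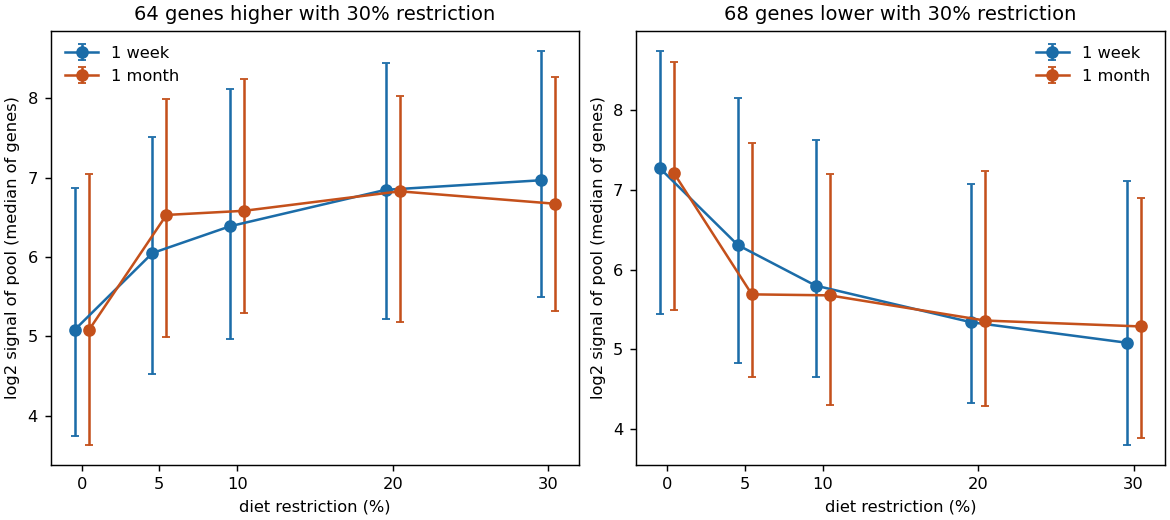
The left panel shows 64 genes higher and the right panel 68 genes lower with 30% restriction than in controls at both durations, with percent restriction on the horizontal axis and log2 signal on the vertical axis. Points are the median over genes of the pool values and bars the quartiles over genes, not an error between rats; at 5% the median was 6.05 at 1 week and 6.53 at 1 month on the left, and 6.31 and 5.69 on the right.

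Cyp7a1, the first and rate-limiting step from cholesterol to bile acids, gave 6.44 and 5.94 at 1 week and 7.93 and 7.96 at 1 month. The durations did not overlap, and the difference was 1.76 ± 0.45, a 3.39-fold higher signal (limma adjusted p = 0.234). The control pools stood at 5.24 and 5.25, and the 1 month pools at 10% and 20% at 8.24 and 7.95. Cyp7a1 was also higher at 1 month at 10%, by 1.43. It differed by 0.01 in controls, 0.44 at 20% and -0.24 at 30%. Of 20 measured genes of bile acid synthesis and transport, Cyp7a1 was the 1 past the rule and 0 passed downward, with 8 above and 12 below 0 and a median of -0.07. Cyp8b1, which sets the ratio of the bile acids made, differed by -0.59 ± 0.15 and missed the size of the rule.

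Nat8, an N-acetyltransferase, gave 6.09 and 5.87 at 1 week and 7.81 and 7.64 at 1 month (1.74 ± 0.36). Por, the electron donor of the microsomal cytochromes P450, gave 8.21 on both arrays at 1 week and 9.77 and 9.43 at 1 month (1.39 ± 0.32), and a second probe set differed by 1.35. In both genes the arrays of the durations lay well apart, and the 1 month levels lay within the range of the 10 to 30% pools. In the other diets from control to 30%, Por differed by 0.21, 0.99, 0.12 and -0.28. The same differences of Nat8 were 0.14, 0.06, -1.04 and -0.61. Ugt2b1, a glucuronosyltransferase, gave 7.46 and 7.50 at 1 week and 8.63 and 8.62 at 1 month (1.14 ± 0.15, limma adjusted p = 0.0734). The sulfotransferase Sult2a6 differed by 1.30 ± 0.27 and the alcohol dehydrogenase Adh4 by 1.25 ± 0.36. The brightest gene past the rule, a choice made after its values were seen, was the alcohol dehydrogenase Adh1c, at 10.98 and 10.86 at 1 week and 12.06 and 12.10 at 1 month.

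Of 31 measured phase I genes of drug and steroid metabolism, 2 passed upward (Por and Adh4) and 1 downward. Their median was 0.18 at 5% and 0.19 in controls, 0.07 at 10%, -0.11 at 20% and 0.07 at 30%. The 1 downward was Ahr, the receptor for dioxins, at 4.17 and 3.27 at 1 week and 2.58 and 1.81 at 1 month. An array of its 1 week pool was thus also under the signal limit, and no bound can be given. Of 24 conjugating enzymes, 3 passed upward (Nat8, Sult2a6 and Ugt2b1) and 0 downward. Their median was 0.11 at 5% and 0.12 in controls, -0.03 at 10%, 0.05 at 20% and -0.02 at 30%, against -0.00 over all genes at 5%. The share of all genes past the rule was 2.27% upward and 1.37% downward.

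**Figure D3:**
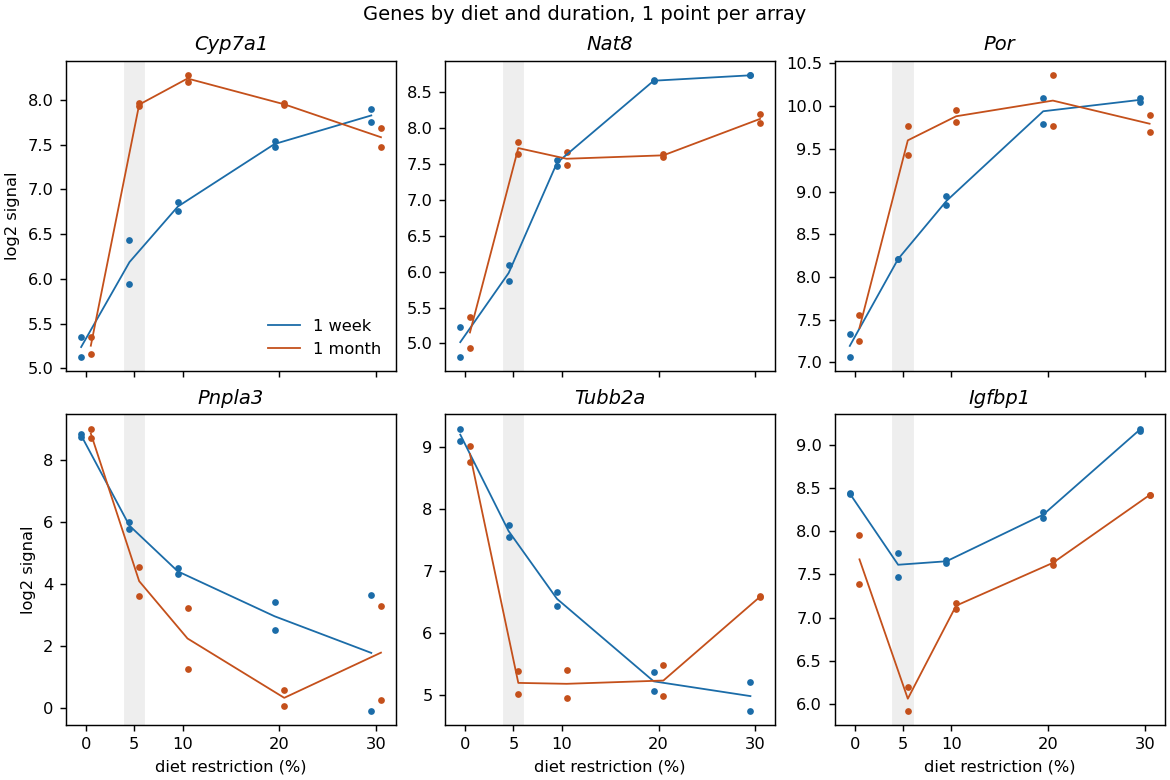
Log2 signal (vertical axes) of 6 genes in all 20 arrays by percent restriction (horizontal axes), with 1 point per array and lines through the pool means at 1 week and 1 month; the grey band marks the 5% diet. Cyp7a1, Nat8 and Por were higher and Pnpla3, Tubb2a and Igfbp1 lower at 1 month on the 5% diet, with no overlap between the 2 arrays of each duration.

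Pnpla3, a lipid droplet protein whose gene is induced by insulin and feeding, gave 5.76 and 5.98 at 1 week and 4.55 and 3.61 at 1 month (-1.79 ± 0.90), against 8.78 and 8.84 in the control pools. The 1 month values were lower without overlap, though they lay apart from each other. Pnpla3 was also lower at 1 month at 10% and 20%, by differences of -2.16 and -2.63. It differed by 0.06 in controls and 0.01 at 30%. Gckr, a regulator of glucose use in hepatocytes, gave 8.68 and 8.80 at 1 week, where controls stood at 8.71, and 7.31 on both arrays at 1 month (-1.43 ± 0.32). Fasn, the fatty acid synthase, gave 8.92 and 9.05 at 1 week and 7.93 and 8.13 at 1 month, a difference of -0.95 ± 0.61 that missed the size of the rule. In the other diets from control to 30%, Gckr differed by 0.10, -0.98, -0.56 and -0.00. The same differences of Fasn were -0.22, -1.34, 1.03 and 0.63.

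Of 23 measured lipogenic genes (fatty acid and triglyceride synthesis), 0 passed upward and 1 (Pnpla3) downward, while 18 were below 0 and the median was -0.29, against -0.14, -0.20, 0.33 and -0.10 from control to 30%. Of 20 genes of cholesterol synthesis and uptake, 0 passed either way, 18 were below 0 and the median was -0.27, against -0.15, -0.44, 0.02 and 0.10. The lowest were Cyp51 and Fdps, both at -0.91, and Dhcr7 at -0.88. Over all genes, 1.37% passed downward and 50.3% were below 0. Dimmer probe sets of the elongase Elovl5 and of Crot, a peroxisomal carnitine transferase, lay at -1.17 and -1.24, against -0.72 and -0.54 on the brightest. Srebf1, which drives lipogenic genes, differed by -0.17 ± 0.23 and Insig1, a brake on sterol synthesis, by -0.22 ± 0.41.

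Of 36 genes of fatty acid oxidation and ketone synthesis, 2 passed upward and 0 downward, with a median of 0.10. Ehhadh, an enzyme of peroxisomal fatty acid oxidation, gave 8.06 and 8.15 at 1 week and 9.33 and 9.25 at 1 month (1.18 ± 0.18, limma adjusted p = 0.11). Ppara, the nuclear receptor that drives this pathway, was under the signal limit on both 1 week arrays, at 2.02 and 2.34, and gave 4.32 and 4.45 at 1 month, at least 1.79-fold higher. In the other diets Ppara differed by -1.99 in controls, 0.44 at 10%, -1.57 at 20% and -1.46 at 30%. Its 1 month pools in controls, at 20% and at 30% lay under the signal limit. Ehhadh was also higher at 1 month in all 4 other diets, by 0.21 to 0.71. Cpt1a, which admits fatty acids to mitochondria, differed by 0.11 ± 0.14, and Pdk4, a kinase that slows glucose oxidation, by -0.61 ± 0.41. Among 17 genes of gluconeogenesis and glycogen, Pfkl, the liver phosphofructokinase, was higher by 1.12 ± 0.26 and Pck2, the mitochondrial enzyme making phosphoenolpyruvate, at least 1.87-fold higher, while Pck1, the cytosolic form, differed by -0.03 ± 0.16.

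Enzymes that break down amino acids held 4 of the higher genes. Tat, the tyrosine aminotransferase, a classic glucocorticoid target, gave 7.33 and 6.91 at 1 week and 8.46 and 8.55 at 1 month (1.38 ± 0.34). Sds, which turns serine into pyruvate, gave 8.43 and 8.18 and then 9.58 and 9.68 (1.33 ± 0.52). Prodh, the first enzyme of proline breakdown, gave 6.79 and 6.94 and then 7.95 and 7.94 (1.07 ± 0.22). Gpt, the alanine aminotransferase, gave 7.99 and 8.10 and then 8.99 and 9.14 (1.02 ± 0.17). None of these 4 overlapped between the durations, and Tat, Prodh and Gpt were lowest of all 10 pools in the 5% pool at 1 week. For Tat the pools at 5% stood at 7.12 at 1 week and 8.50 at 1 month, against 8.47 and 9.38 in the control pools, so the 1 month pool lay under its own control. Tat was higher at 1 month in every diet, by 0.91 in controls, 2.04 at 10%, 1.45 at 20% and 0.84 at 30%, and the 5% diet differed from their mean by 0.07 ± 0.38. Sds was higher by 2.16 at 10% and 1.29 at 20%, and the 5% diet differed from the mean of the others by 0.31 ± 0.58. Prodh and Gpt were also higher at 1 month in all 4 other diets, by 0.05 to 0.67 and 0.41 to 0.86.

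Of 37 measured enzymes of amino acid breakdown or the urea cycle, 4 passed upward and 2 downward, 25 were above 0 and the median was 0.16, against 0.12, 0.14, 0.10 and 0.14 in the control, 10%, 20% and 30% diets. The 2 lower genes were Kynu, the kynureninase of tryptophan breakdown, at 9.80 and 10.01 at 1 week and 8.37 and 8.38 at 1 month (-1.53 ± 0.34), and Bhmt, which remethylates homocysteine, at -1.03. Kynu also differed by -1.10 at 10%, and by -0.12 in controls, -0.31 at 20% and 0.23 at 30%. Over all genes, 2.27% passed upward, 1.37% passed downward and 49.7% were above 0. Of 15 genes of the amino acid response, which cells switch on when amino acids run short, 3 passed upward and 0 downward, with a median of 0.33, against 0.16, 0.10, -0.29 and -0.31 in the other diets from control to 30%. Cebpb, a transcription factor of this response and of gluconeogenesis, gave 6.35 and 6.71 at 1 week and 7.88 and 7.89 at 1 month (1.35 ± 0.29). Its control pools stood at 7.94 and 7.89, so the 1 month pool lay at the control level and the 1 week pool under it. The amino acid transporter Slc38a2 differed by 1.08 ± 0.29 and the stress protein Nupr1 by 1.10 ± 0.31. Cebpb and Slc38a2 were lowest of the 10 pools in the 5% pool at 1 week, with Slc38a2 at 5.81 against 6.56 and 6.50 in controls. Nupr1 was highest of the 10 pools in the 5% pool at 1 month, at 7.48 against 6.18 and 6.61 in controls.

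Clock genes had the second highest median of the lists with at least 5 genes, 0.55 over 15 measured members, against -0.16, 0.05, -0.23 and -0.28 in the control, 10%, 20% and 30% diets. Of the 15, 3 passed upward and 1 downward, and 11 were above 0. Over all genes these shares were 2.27%, 1.37% and 49.7%. Hlf, a clock-driven transcription factor of the PAR bZIP family, gave 4.76 and 4.75 at 1 week and 5.98 and 6.00 at 1 month (1.23 ± 0.30). Its relative Tef gave 2.61 and 3.36 and then 4.35 and 3.77, at least 1.43-fold higher. Their relative Dbp gave 7.20 and 7.09 and then 8.03 and 8.21 (0.98 ± 0.82), without overlap but under the size of the rule, with control pools at 2.06 and 2.83. Usp2, a rhythmic deubiquitinase, differed by 1.13 ± 0.27, and a second probe set by 0.99.

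Bmal1, the activator at the core of the clock, gave 3.69 and 3.93 at 1 week and 3.08 and 0.54 at 1 month, at least 1.20-fold lower, with 5.56 and 5.40 in the control pools. Its 1 month arrays lay far apart and under the signal limit, so that only this bound can be given. Nr1d1, a repressor of Bmal1, differed by -0.87 ± 0.40, and the period genes Per1 and Per2 by 0.65 ± 0.64 and 0.80 ± 0.48. Per1 overlapped between the durations and Per2 did not.

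The starts of Tef and Bmal1 are shown because these clock genes differed in opposite directions and each held a match to a clock motif. Both are from RefSeq (GRCr8, 300 bases each): Tef at chr7:115206577-115206876 and Bmal1 at chr1:176766078-176766377, both on the plus strand. Capitals mark the E-box (CACGTG) in Tef, the core of the ROR element (TAGGTCA) in Bmal1 and the CCAAT box in both, searched on both strands.
Tef: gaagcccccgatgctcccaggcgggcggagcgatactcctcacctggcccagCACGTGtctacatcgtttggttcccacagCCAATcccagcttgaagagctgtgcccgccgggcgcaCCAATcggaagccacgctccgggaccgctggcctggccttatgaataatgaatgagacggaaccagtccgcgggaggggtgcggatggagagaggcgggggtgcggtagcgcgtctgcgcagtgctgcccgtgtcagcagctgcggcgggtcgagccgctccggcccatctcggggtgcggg
Bmal1: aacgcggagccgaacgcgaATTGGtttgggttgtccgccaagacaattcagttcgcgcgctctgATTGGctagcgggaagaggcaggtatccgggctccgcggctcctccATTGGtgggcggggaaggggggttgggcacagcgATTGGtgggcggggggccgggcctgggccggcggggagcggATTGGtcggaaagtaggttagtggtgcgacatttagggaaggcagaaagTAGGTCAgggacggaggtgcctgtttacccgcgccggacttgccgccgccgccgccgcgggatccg
Tef held 1 E-box and 2 CCAAT matches, and Bmal1 held 1 ROR core and 5 CCAAT matches. The E-box was in 6.65% of 27457 rat promoters and the ROR core in 2.6%. Of the genes past the rule, 18 of 138 higher genes and 2 of 79 lower genes with a promoter entry held an E-box. The ROR core was in 1 of the 138 and 1 of the 79. Of 13 measured clock genes with an entry, 2 held an E-box and 1 the ROR core, and Usp2 held neither. Other motifs were searched as well, the 27457 promoters were not limited to the genes examined, and these shares were not tested. A match describes the letters and shows no binding.

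**Figure D4:**
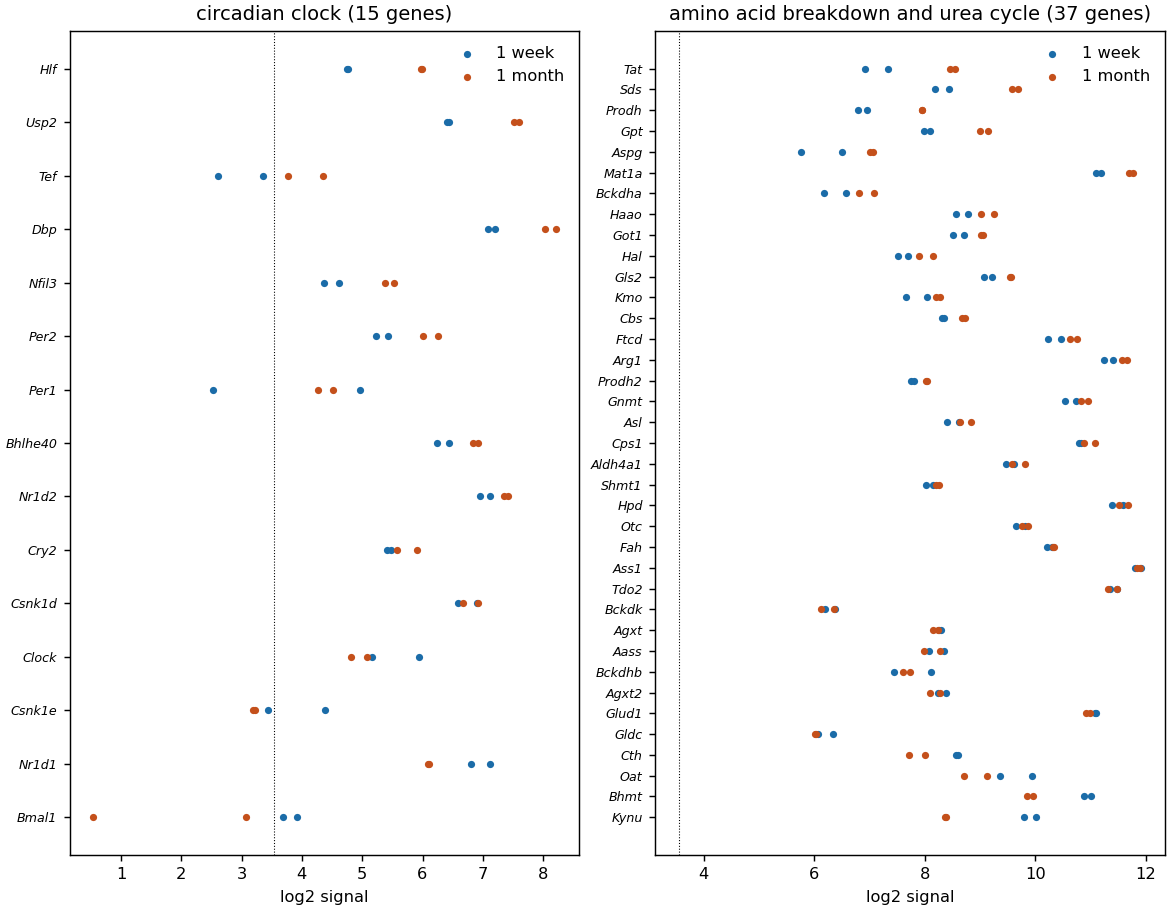
Log2 signal (horizontal axes) of 15 clock genes and 37 enzymes of amino acid breakdown or the urea cycle on the 4 arrays at 5%, ordered by the difference between durations. The dotted line marks the lowest mean signal examined, 3.54; Hlf and Tat lie at the top of their panels and Bmal1 and Kynu at the bottom.

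Among glucocorticoid-induced genes and metallothioneins, 9 of 11 were above 0, 2 passed upward (Tat and the cell cycle inhibitor Cdkn1a) and 0 downward, with a median of 0.69, against 0.03, 0.58, 0.05 and 0.33 in the other diets from control to 30%. Both genes past the rule are counted in other lists as well, Tat among amino acid enzymes and hepatocyte markers and Cdkn1a among cell cycle genes. Over all genes, 49.7% were above 0 and 2.27% passed upward. The metallothionein Mt2A gave 8.57 and 8.56 at 1 week and 9.31 and 9.20 at 1 month (0.69 ± 0.56). Cdkn1a had an array under the signal limit and was at least 1.69-fold higher, while its second probe set differed by 0.17. Its pools at 5% stood at 3.44 at 1 week and 4.63 at 1 month, under the control pools at 7.11 and 7.22. It was also higher at 1 month in the other diets, by 0.11 in controls, 3.39 at 10%, 2.52 at 20% and 2.04 at 30%.

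Tubb2a, a beta tubulin, gave 7.74 and 7.55 at 1 week and 5.38 and 5.00 at 1 month (-2.46 ± 0.72), a 5.49-fold lower signal. Cyp2c12, a steroid hydroxylase that is higher in female rat liver, gave 7.09 and 7.17 and then 4.79 and 4.94 (-2.26 ± 0.52), and it was also lower at 1 month in controls, by a difference of -1.97. Neither overlapped between durations at 5%. Tubb2a differed by -0.32 in controls, -1.38 at 10%, 0.01 at 20% and 1.61 at 30%. Cyp2c12 differed by 0.11 at 10%, -0.96 at 20% and -1.08 at 30%. The other 14 of 15 measured sex-biased genes did not pass, with the male-predominant Cyp2c11 at 0.07 ± 0.10. The taurine transporter Slc6a6 was at least 2.88-fold lower, with 7.62 and 7.65 in the control pools and 5.46 in the 5% pool at 1 week.

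Many of the largest differences were in dim probe sets. Of the 160 higher genes, 86 had a 1 week pool mean under the signal limit, and of the 97 lower genes 49 had such a 1 month mean. In 96 of the 160, the 5% pool at 1 week was the lowest of all 10 pools, and in 37 the 1 month pool was the highest. In 49 of the 97, the 1 month pool was the lowest, and in 43 the 1 week pool was the highest. Of all 7056 genes, the 1 week pool was lowest in 715 (10.1%) and highest in 777. The 1 month pool was lowest in 481 of all genes and highest in 505. The 160 and 97 genes were chosen by the gap between these pools, which by itself raises such counts.

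RT1-CE16, a class I antigen-presenting gene, gave 3.35 and 3.39 at 1 week and 5.64 and 5.60 at 1 month, at least 4.21-fold higher (limma adjusted p = 0.0946), and the other 9 pools were at or above 5.12. Its probe set can also read related class I genes. Epn1, an endocytic adaptor, gave 5.57 and 5.51 at 1 month and was under the signal limit on both arrays at 1 week. Nfic, a transcription factor, was at least 3.90-fold higher, Ciao3 at least 3.20-fold, Uqcc3, an assembly factor of respiratory complex III, at least 2.62-fold, and Dnajc21 at least 2.32-fold. Farsa, Mtmr1 and Dido1 were at least 2.15-fold, 1.86-fold and 1.60-fold higher. Myc gave 0.74 and 4.36 at 1 week and 4.85 and 5.16 at 1 month, at least 2.07-fold higher, so that 1 dim array set most of the difference. Mdm2 was at least 2.13-fold higher on its brightest probe set and differed by -0.01 on another.

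Among genes whose 1 week pool was not under the limit, a ranking added after values were seen gave, beside those above, Angel2 (at least 3.30-fold), Lama3, a laminin chain (1.71 ± 0.46), Trappc5 (at least 2.22-fold), Rhobtb1 (1.61 ± 0.35), Fbxo21 (at least 2.89-fold), Acsm5, a medium-chain acyl-CoA synthetase (1.54 ± 0.46), Smyd2, a methyltransferase (1.47 ± 0.28), Lenep (at least 1.84-fold) and Josd2 (at least 2.25-fold). Josd2 was lower at 1 month at 30%, with a difference of -2.76, and Angel2 was lower in controls, with a difference of -1.34. Lama3 was 6.14 and 3.88 on its 1 week arrays, which lay far apart.

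Among dim genes lower at 1 month, Ptprk, a receptor phosphatase, was at least 1.41-fold, Zfp423 at least 2.06-fold and Ackr2, a chemokine receptor, at least 2.40-fold lower. Pdlim3, Pappa2, Asic1 and SIRT2 were at least 2.38-fold, 2.66-fold, 1.63-fold and 1.69-fold lower. From the ranking added after values were seen, Fli1 was at least 2.03-fold lower, Cend1 differed by -1.35 ± 0.61, Nup155, a nuclear pore protein, by -1.42 ± 0.35 and Dipk2a by -1.33 ± 0.40. Each of these 11 had both 1 month arrays below both 1 week arrays.

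Several large groups differed little. Of 48 oxidative phosphorylation genes 0 passed, 24 lay on each side of 0, and the median was -0.00. Of 33 ribosomal protein genes 0 passed, with a median of -0.03. Of 26 proteasome subunits 0 passed and 22 were below 0 (median -0.16), and of 24 endoplasmic reticulum chaperones 0 passed and 18 were below 0 (median -0.17). Heat shock proteins, antioxidant enzymes, iron and haem genes and apolipoproteins had 0 past the rule each, with medians of 0.09, 0.15, 0.15 and 0.03. Hamp, the iron hormone hepcidin, differed by 0.28 ± 0.88, and Hspa1a by -0.15 ± 0.30.

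Of 24 acute phase and complement genes, Il6r, the interleukin 6 receptor, was the 1 past the rule (1.00 ± 0.24, median of the list -0.05). Of 28 interferon and antigen presentation genes, RT1-Ba, a class II gene, was the 1 past it (1.18 ± 0.36, median -0.01). Among 19 cell cycle genes, Mcm2, Mdm2 and Cdkn1a passed upward and Ccnb2, a mitotic cyclin, downward (at least 2.05-fold), with a median of -0.11. Of 12 immediate early genes Myc was the 1 past the rule (median 0.10). Of 5 fetal and early postnatal genes all were below 0, with a median of -0.42; Tff3 was at least 1.84-fold lower and Afp, the fetal albumin relative, differed by -0.42 ± 0.26. Of 11 tubulin and actin genes, Tubb2a was the 1 past the rule (median -0.29).

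**Figure D5:**
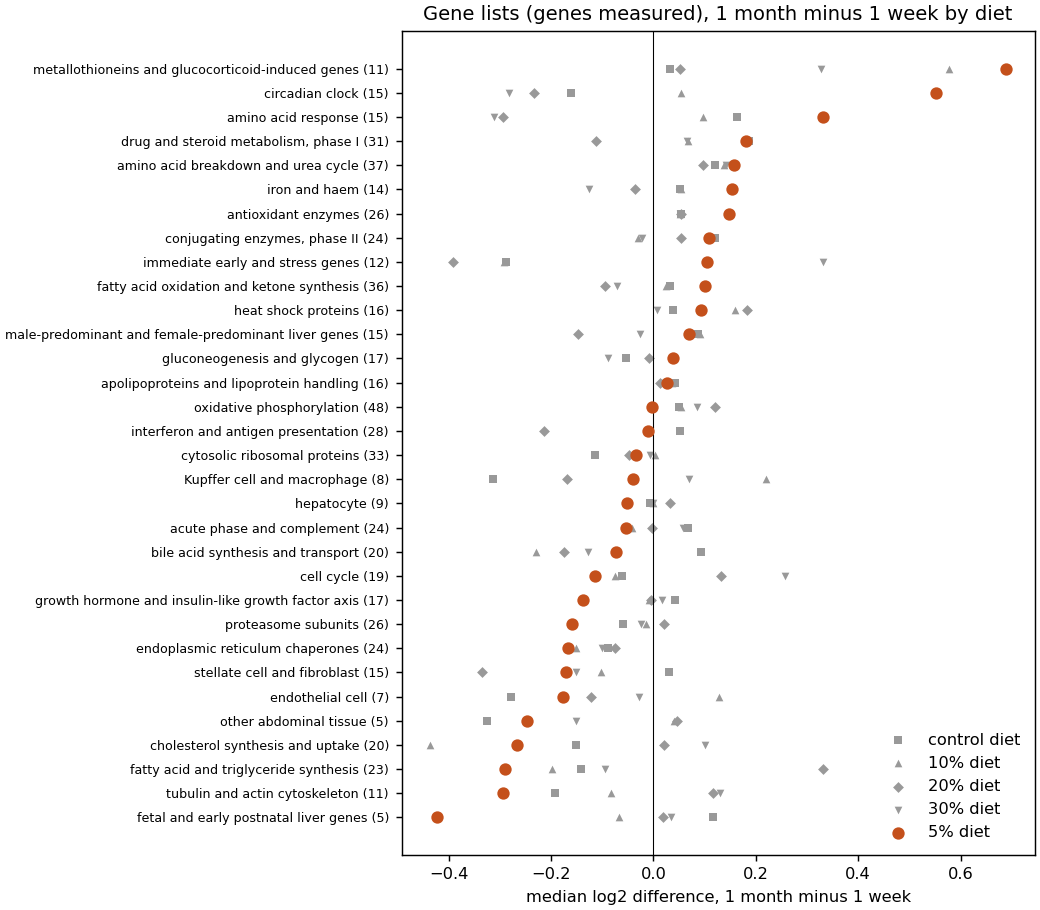
Median log2 difference, 1 month minus 1 week (horizontal axis), of each gene list with at least 5 measured genes, with the number measured in brackets and 1 symbol for each diet. On the 5% diet the medians run from -0.42 for fetal and early postnatal genes to 0.69 for metallothioneins and glucocorticoid-induced genes.

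Hepatocyte markers were bright in both pools, with a summed signal of 37773 and 36949 units at 1 week and 34859 and 35335 at 1 month over 9 genes, and Tat was the 1 of the 9 past the rule. Of 15 stellate cell and fibroblast markers 0 passed and 11 were below 0, with summed signals of 1193 and 1261 at 1 week and 1043 and 1021 at 1 month. Of 7 endothelial and 8 macrophage markers 0 passed, with medians of -0.18 and -0.04. Of 3 bile duct markers 0 passed and their sum was 244 and 251 at 1 week and 375 and 371 at 1 month. Of these markers 2 were below 0 and 1 above, at 0.80, with a median of -0.10, so the higher sum came from 1 marker. Of 3 lymphocyte markers, Coro1a passed upward (at least 1.82-fold).

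The red cell markers Hbb and Alas2 differed by -0.91 and -0.81, and by a median of -1.17 in controls. Of 5 markers of other abdominal tissues 0 passed (median -0.25). The part of these shifts in the results above was not tested. In bulk liver, fewer cells of a type and less RNA per cell cannot be told apart.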

How the data were processed

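For each array the authors deposited 1 linear intensity per probe set. These came from MAS5, per the submitters' processing notes, and neither a version nor a scaling target is given in the sources used here. Per the labels' protocols, 10 ug of pooled total RNA was labelled. Zeros, 32 in all, were replaced by the lowest positive signal on the same array, 57 control probe sets were left out, and log2 signals were quantile normalized over the 20 arrays in limma 3.58.1 (R 4.3.3). Other steps used Python 3.11.15 with pandas 2.3.3. MAS5 detection calls were not used here, and the number of arrays limits the precision.

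Of the 9520 probe sets examined, 8120 had 1 gene in the platform annotation, 245 several and 1155 none listed. Of the 8120, 8100 gene identifiers were found in the RefSeq rat gene table, which changed 0 symbols. Promoters came from RefSeq (GRCr8).

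Arrays of 1 pool are technical repeats, so pool means entered limma (lmFit and eBayes with a trend, two-sided, Benjamini-Hochberg over 9520 probe sets, threshold 0.05) with diet, duration and a term for 1 month at 5% (3 residual degrees of freedom). Its p-values do not measure the spread between rats. Identical values on both arrays were found at 121 (1 week) and 73 (1 month) probe sets, so neither array was a copy. Array numbers did not pair samples: deviations of same-numbered arrays of different pools correlated at -0.047 to 0.121 (45 pairs).

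Named were the 12 largest differences past the size rule in each direction with both arrays of the higher pool above the signal limit, genes past limma, up to 4 members per list past the rule, and a preset list of genes; some of its members are not reported here. Bhmt, Gpt, Adh1c, Zfp414 and further list members given without an SE were named after their values were seen. Members, lists and rules were chosen with earlier results of these data known. The size rule and the limma model, coded again, were run on simulated pools with known differences. Alternatives covered scaling, arrays, signal filter, threshold, variance model and diets.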

Additional observations from a re-analysis of the deposited data

Results flagged for a closer look

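On their brightest probe sets, the named genes Fbxo21, Pck2, Mark4 and Pla2g10, all past the size rule, differed at 5% in the opposite direction to all 4 other diets. They were picked from the named genes for this pattern, and some differences in the other diets lay close to no change. Fbxo21, an F-box protein, differed by 1.55 at 5% and by -0.02 in controls, -0.40 at 10%, -0.11 at 20% and -0.69 at 30%. Pck2 differed by 1.75 at 5% and by -0.42 to -0.52 in the other diets. It gave 4.45 and 1.86 at 1 week and 4.84 and 4.96 at 1 month, so 1 dim array set most of the difference. Mark4, a kinase that acts on microtubule-associated proteins, differed by -1.82 at 5% and by 0.06 to 1.25 in the others. Its arrays gave 5.11 and 4.62 at 1 week and 1.49 and 4.61 at 1 month, so 1 dim array set most of the difference. The second probe set of Mark4 differed by -1.95 at 5% and by -0.34 to 0.02 in the others, and so did not share the pattern. Pla2g10, a secreted phospholipase, differed by -1.57 at 5% and by 0.28 to 1.11 in the others.

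In the limma test of the difference from the mean of the other diets, the values were 1.86 ± 0.41 for Fbxo21, 2.22 ± 0.43 for Pck2, -2.49 ± 0.53 for Mark4 and -2.18 ± 0.44 for Pla2g10, and none of the 4 passed (each with adjusted p = 0.295). All 4 had at least 1 array of the lower 5% pool under the signal limit, so the size at 5% is known only as a bound. The folds were at least 2.89 for Fbxo21, 1.87 for Pck2, 1.73 for Mark4 and 2.85 for Pla2g10.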

How the results depend on the processing

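The counts by the size rule moved with the scaling, the filter and the arrays used. With the signals as deposited, where the median gene was 0.66 higher at 1 month, 1469 probe sets were higher and 34 lower (97.7% higher, against 60.6%), and median centring left a shift of 0.23. Without the signal filter 964 were higher and 944 lower, and with the upper 40% by signal 65 and 29. At a difference of 1.5 there were 79 and 39, and at 1.5-fold 688 and 593. With 1 array number left out in both pools, which ends the rule on overlap, 343 to 434 were higher and 294 to 330 lower. With 1 array of a 5% pool left out, alternatives chosen after seeing the data, the lower count was 222 and 270 without arrays 1 and 2 of the 1 month pool and 246 and 247 without arrays 1 and 2 of the 1 week pool. The higher count was 290 without array 1 of the 1 month pool and 409 without array 2 of the 1 week pool.

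The limma count at 5%, 0 higher and 1 lower, became 3304 and 14 without normalization and 7 and 0 when arrays were centred on the median. With 1 array number left out, the lower count was 0 to 2, and without a variance trend 0. With 1 diet left out, 0 to 18 were higher and 0 to 8 lower. The highest counts, 18 and 8, came without the 10% pools, where Cyp7a1, Por, Tat, Gpt, Kynu and Cyp2c12 passed (limma adjusted p = 0.0457 each); no probe set passed without the control, 20% or 30% pools. A fit of the 20 arrays with the array number as a replicate block and the pool as a random block gave 123 higher and 80 lower; its pool correlation of 0.112 treats arrays of a pool almost as separate samples, and the numbers did not pair the arrays. For 5% against the other diets, 0 calls became 1542 and 15 as deposited and 34 and 17 with the block.

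Of 35 lists, 3 had a median at least 0.3 higher and 2 at least 0.3 lower. These were 33 and 0 as deposited, 12 and 1 with median centring, and the lower count was 4 to 6 with 1 array number left out. Relative to all genes, 33 of 35 list medians kept their sign as deposited. The exceptions were bile acid genes (-0.07 and 0.00) and ribosomal proteins (-0.03 and 0.05). Of the 69 named genes past the size rule, 61 kept a difference of at least 1 as deposited, 68 with median centring and 56 to 57 with 1 array number left out, and none changed direction. For genes chosen from the 20% pools the medians were 0.69 and -0.68, and at a difference of 1.5 they were 1.00 and -0.83.

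Each diet and duration had 1 pool, so the spread between pools of a condition was not measured, and dim genes have at most a bound.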
